A study of Homo sapiens with 20 samples.

Results

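A set of 188 protein-coding genes was selected on early counts from OPM2, an established line of human myeloma cells. They were higher after 2 h of either of the hydroxamates panobinostat and ricolinostat, and at most slightly higher after 2 h of romidepsin. They are 188 of 78932 gene identifiers in the count table, 19854 of which are protein-coding. A gene was taken when d, the log2 ratio of treated to DMSO counts scaled to library totals (CPM, the usual normalised read count) with 0.5 CPM added to each, was at least 0.8 with panobinostat and with ricolinostat and below 0.3 with romidepsin, all at 2 h. Its mean also had to reach 3 CPM in the panobinostat libraries at 2 h. Both hydroxamate limits were passed by 315 protein-coding genes, and the 127 of them with a romidepsin d of 0.3 or more serve below as the comparison set.

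Poly(A) RNA was sequenced from 20 libraries in 10 groups of 2 biological replicates. All libraries come from the same line, grown in the same medium, with no genetic change named in the labels. The groups are a DMSO vehicle control and, for each inhibitor, cells harvested after 2, 5 and 20 h. The dose was 10 nM for panobinostat and for romidepsin. For ricolinostat the titles state 100 nM, but 1 field of its labels states 10 nM. No harvest time is on the DMSO labels, so time in culture and treatment cannot be told apart in comparisons with DMSO. Since the dose of ricolinostat differs from the others, its values are given side by side with theirs and no test between them was made. Results come from 1 line, which limits them as a model of myeloma.

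Histone deacetylases (HDACs) remove acetyl groups from histones and other proteins, and inhibiting them raises histone acetylation and changes the transcription of many genes in both directions. Panobinostat and ricolinostat are hydroxamic acids, which bind the zinc ion in the catalytic pocket directly. Panobinostat inhibits most zinc-dependent HDACs and ricolinostat prefers HDAC6, which acts largely on cytoplasmic proteins such as tubulin. Romidepsin is a cyclic depsipeptide whose disulfide must be reduced inside the cell before a thiol can reach the zinc, and it is most potent on class I HDACs. All 3 compounds have been studied in multiple myeloma, a cancer of plasma cells.

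The values at 2 h chose the genes and are described here without a test. With panobinostat, the rule's d ran from 0.807 to 3.57 over the 188 genes, with ricolinostat from 0.801 to 1.84, and with romidepsin from -0.684 to 0.299. Among the 9755 protein-coding genes of at least 3 CPM in the panobinostat 2 h libraries, 7.84% reached the panobinostat limit and 3.60% the ricolinostat limit. Just inside the limits were SS18L1 (panobinostat d of 0.807), ACER2 (ricolinostat d of 0.801) and POU2F1 (romidepsin d of 0.299). Just outside were KCNAB3 (panobinostat d of 0.790), RMC1 (ricolinostat d of 0.798) and MARCHF9 (romidepsin d of 0.305). By mean CPM, LHB was just inside at 3.05 and PITPNM3 just outside at 2.99.

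The 188 genes were mostly of low to moderate abundance. From here on, levels are CPM scaled by the trimmed mean of M-values (TMM). The median gene of the set stood at 21.8 and 21.3 CPM in the 2 DMSO libraries, at 50.2 and 50.3 CPM after 2 h of panobinostat, at 45.3 and 45.7 CPM after 2 h of ricolinostat, and at 21.1 and 21.8 CPM after 2 h of romidepsin. After 20 h the medians were 47.0 and 47.5 CPM with panobinostat, 24.7 and 24.2 CPM with ricolinostat, and 43.4 and 44.3 CPM with romidepsin. At that time the romidepsin libraries stood near those of panobinostat, and the ricolinostat libraries near DMSO.

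**Figure D1:**
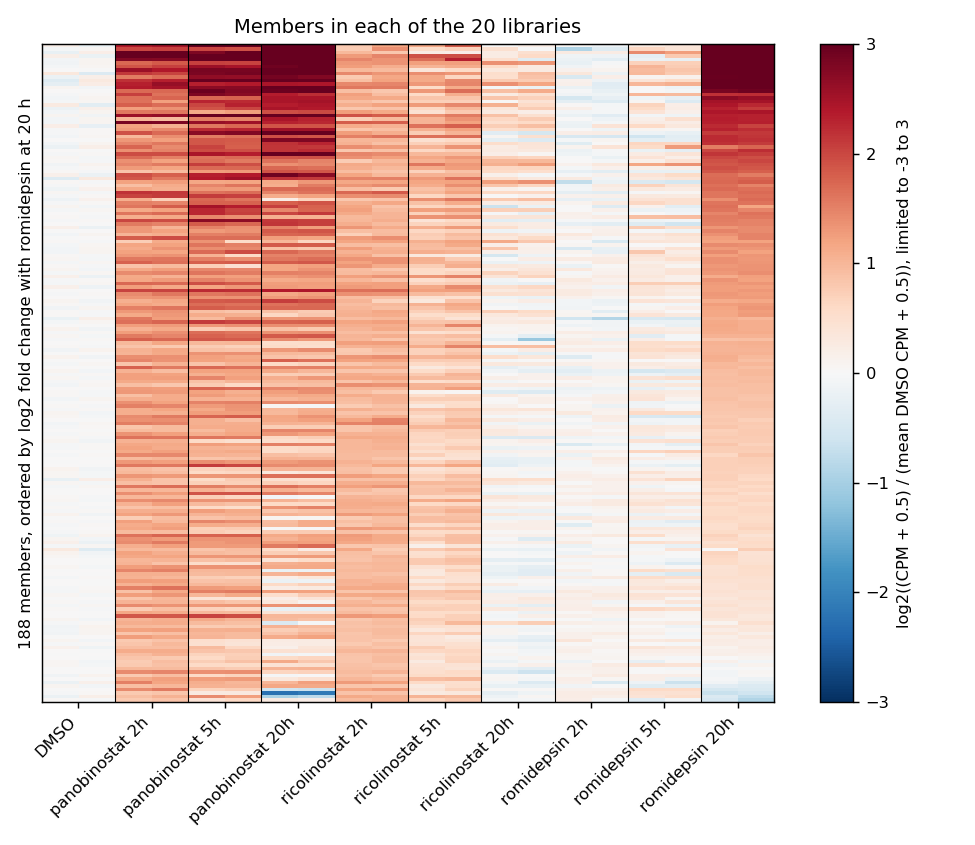
Each row is 1 of the 188 genes and each column 1 of the 20 libraries, 2 per group; colour is the log2 ratio of TMM-scaled CPM to the DMSO mean with 0.5 CPM added to each, limited to -3 and 3. Red fills the panobinostat columns at all 3 times and the ricolinostat columns at 2 and 5 h, and among the romidepsin columns it fills those at 20 h.

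Total counts ran from 17264640 to 29088868 per library. The 9 plasma cell and myeloma markers were all present in DMSO and summed to 10380 and 10450 CPM. Their sum was 1777 to 1810 CPM with panobinostat, 3194 to 3233 CPM with romidepsin and 9422 to 9529 CPM with ricolinostat at 20 h, and its part in the results was not tested. Of 3 B cell markers, 2 were at 0 in both DMSO libraries, and their sum was 17.4 to 18.8 CPM with panobinostat and 16.6 to 17.8 CPM with romidepsin at 20 h. Markers of T and NK, myeloid, erythroid, stromal and epithelial cells summed to at most 3.02 CPM in any library. A smaller share of cells that hold a transcript and less of it per cell cannot be told apart in these bulk libraries.

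Panobinostat and romidepsin, both at 10 nM, were compared directly at 5 and 20 h, which is 1 pair of compounds at 2 times, and these libraries had no part in choosing the genes. Genes higher at 5 h with panobinostat than with romidepsin numbered 180 of 188, where 25.9% of the 20957 genes tested were higher, and 1 was lower, where 24.8% were lower. The median log2 difference was 1.20 over the 188 genes and 0.91 over the comparison set, of which 103 were higher and 8 lower. At 20 h the median log2 difference over the 188 genes was 0.21. By then 92 of the 188 were higher with panobinostat (18.3% of all genes) and 41 were lower (23.4% of all genes), while 55 passed the test in neither direction. From 5 to 20 h the signed log2 difference, panobinostat less romidepsin, fell in 164 genes (24.8% of all genes) and rose in 3 (15.8% of all genes). The latter count was 0 without romidepsin 5 h replicate 1. A fall of this signed value is not always a smaller gap, since 41 genes were lower with panobinostat at 20 h and 1 at 5 h. Calls are those of edgeR's quasi-likelihood test at an adjusted p below 0.05, with Benjamini-Hochberg correction over all genes tested. The 1 gene lower at 5 h was CASP10, with a log2 difference of -0.17 ± 0.059 (SE), and the call was lost without romidepsin 5 h replicate 2, at -0.16.

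**Figure D2:**
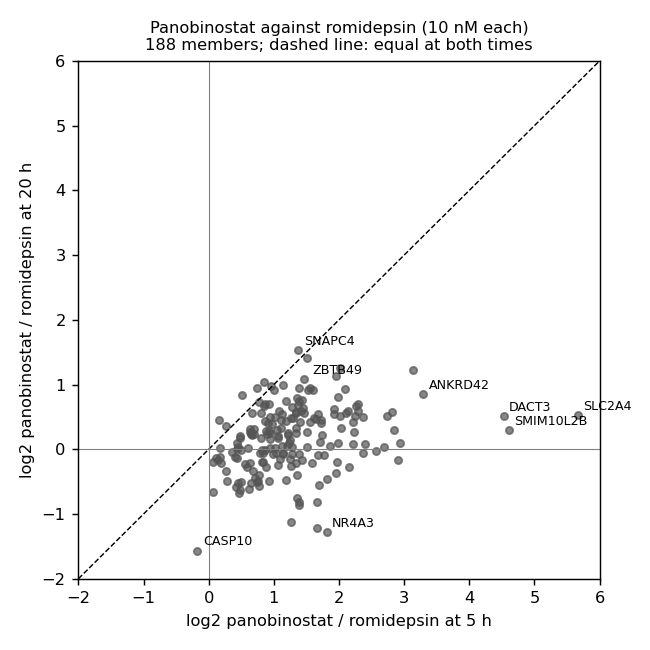
Each point is 1 of the 188 genes, with its log2 ratio of panobinostat to romidepsin (10 nM each) at 5 h on the horizontal axis and at 20 h on the vertical axis. Most points lie below the dashed line of equality, with SLC2A4, DACT3 and SMIM10L2B farthest to the right and CASP10 lowest.

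The change between 5 and 20 h, also free of the libraries that chose the genes, ran in opposite directions with ricolinostat and romidepsin. With ricolinostat, 170 of the 188 genes fell (20.7% of all genes) and 0 rose (17.2% of all genes), with a median log2 change of -0.64. DESeq2 also called 0 rises, and 0 rises had an unadjusted edgeR p below 0.05. With romidepsin, 157 rose (33.4% of all genes) and 7 fell (29.4% of all genes), with a median of 0.82. With panobinostat, 49 rose (27.5% of all genes) and 74 fell (28.9% of all genes), with a median of -0.065. That last split turned to 75 higher and 55 lower when libraries were scaled by library size only. In the comparison set, 110 of 127 genes fell with ricolinostat and 84 rose with romidepsin over the same interval.

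**Figure D3:**
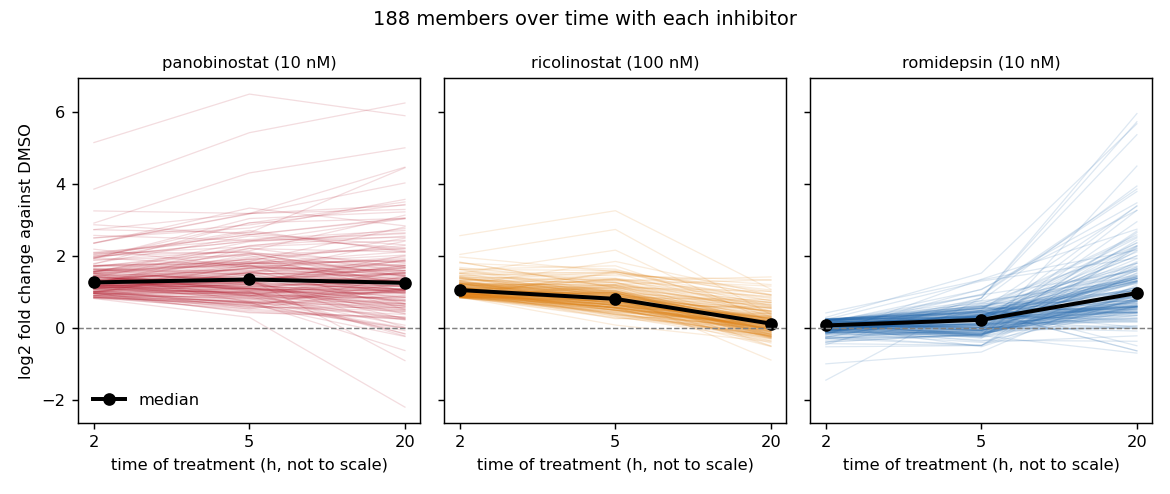
Each thin line is 1 of the 188 genes, with its log2 fold change against DMSO (vertical axis) at 2, 5 and 20 h (horizontal axis, not to scale) for each inhibitor, and the black line is the median. The medians were 1.26, 1.34 and 1.25 with panobinostat, 1.05, 0.81 and 0.12 with ricolinostat, and 0.066, 0.22 and 0.97 with romidepsin; the 2 h values chose the genes.

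Against DMSO, the same libraries of which also chose the genes, the order of the inhibitors changed with time. All comparisons with DMSO share those 2 libraries and are therefore not independent of each other. After 5 h of panobinostat 188 genes were higher (30.7% of all genes) and 0 lower (25.9% of all genes). Of the 188, 137 were higher by at least 2-fold, beside 3682 of the 20957 genes tested. After 20 h of panobinostat 171 were higher (40.8% of all genes) and 5 lower (32.3% of all genes). With ricolinostat, 185 were higher at 5 h (18.8% of all genes) and 0 lower (15.3% of all genes), while at 20 h 62 were higher (14.7% of all genes) and 24 lower (16.4% of all genes). Both counts of 0 with edgeR were also 0 with DESeq2 and 0 at an unadjusted p below 0.05. The 20 h split for ricolinostat was 85 higher and 10 lower with scaling by library size only, and the lower calls numbered 15 without DMSO replicate 2.

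With romidepsin at 5 h, 83 genes were higher (13.0% of all genes), 15 lower (16.5% of all genes) and 90 neither, with a median log2 fold change of 0.22. The lower calls numbered 23 without panobinostat 2 h replicate 2. After 20 h of romidepsin 171 were higher (38.6% of all genes) and 5 lower (29.9% of all genes), and 90 were at least 2-fold higher. In the comparison set, 113 of 127 genes were already higher with romidepsin at 5 h and 118 at 20 h. The romidepsin value at 2 h separates these sets by construction, so the difference between them is a description.

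**Figure D4:**
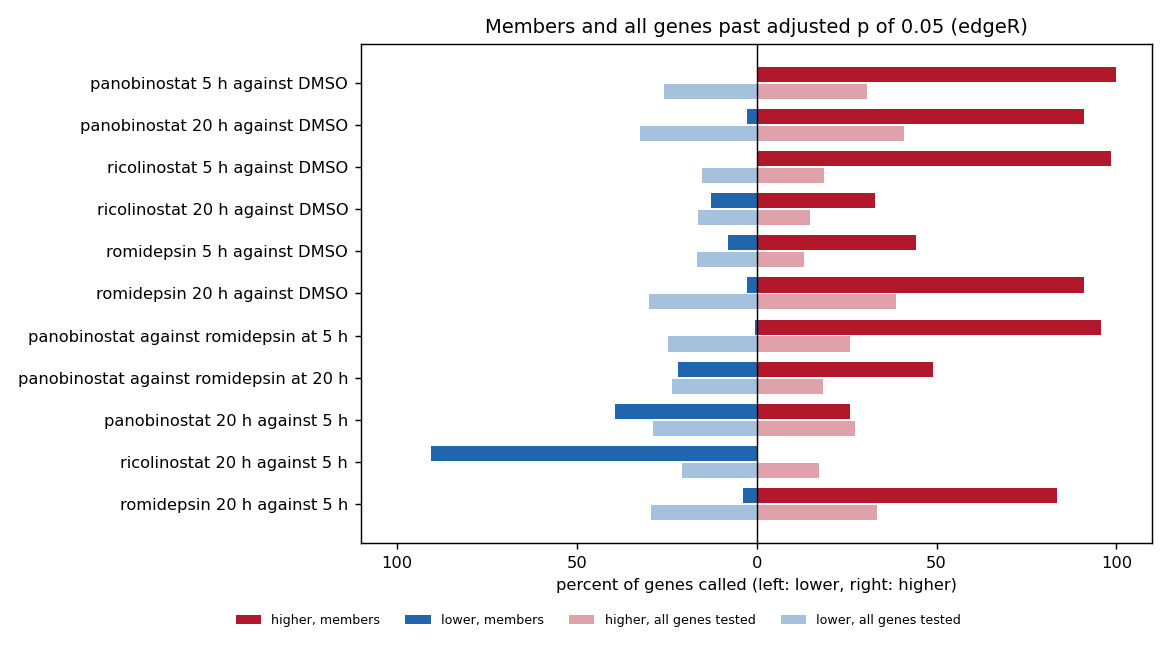
Bars to the right give the percent of genes higher and bars to the left the percent lower in each comparison (edgeR adjusted p below 0.05), dark for the 188 genes and pale for all 20957 genes tested. The ricolinostat bar turns from 98.4% higher at 5 h to 33.0% at 20 h, while that of romidepsin goes from 44.1% to 91.0%.

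The clock genes PER1 and CRY2 belong to the set; their products repress the CLOCK and BMAL1 transcription factors in the circadian feedback loop. PER1 (ENSG00000179094, GRCh38 chr17:8140472-8156506) stood at 23.4 and 26.2 CPM in DMSO, and at 183 and 179.6 CPM after 2 h of panobinostat, 88.2 and 87.7 CPM after 2 h of ricolinostat and 22.1 and 23.8 CPM after 2 h of romidepsin. At 20 h it was at 125 and 122 CPM with panobinostat, 35.6 and 38.04 CPM with ricolinostat and 128 and 128 CPM with romidepsin, so that the panobinostat and romidepsin libraries lay side by side and both stood far above DMSO. Between 5 and 20 h of romidepsin PER1 rose by a log2 value of 2.13 ± 0.062 (SE, adjusted p = 6.5e-54). Its difference between panobinostat and romidepsin was 2.37 ± 0.063 at 5 h (adjusted p = 3.8e-57) and -0.052 ± 0.054 at 20 h (adjusted p = 0.48).

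CRY2 went from 20.6 and 20.4 CPM in DMSO to 84.5 and 80.9 CPM after 5 h of panobinostat and 27.6 and 25.8 CPM after 20 h of romidepsin. Unlike PER1, it stayed higher with panobinostat than with romidepsin at 20 h, by a log2 difference of 0.63 ± 0.076 (adjusted p = 8.2e-12). Of the 16 clock genes measured, 9 were higher and 4 lower with panobinostat than with romidepsin at 5 h, and 4 were higher and 5 lower at 20 h. The median log2 difference of the clock genes was 0.69 at 5 h, beside 1.20 for the 188 genes. The shares over all genes were 25.9% higher and 24.8% lower at 5 h and 18.3% and 23.4% at 20 h. Against DMSO at 5 h the clock genes split into 8 higher and 6 lower with panobinostat (median log2 fold change 0.22), 5 higher and 8 lower with ricolinostat (-0.42) and 2 higher and 6 lower with romidepsin (-0.017). In the same order, 30.7%, 18.8% and 13.0% of all genes were higher, and 25.9%, 15.3% and 16.5% lower.

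MAX and MXD1 belong to the MYC network; MAX is the shared dimer partner, and MXD1 binds MAX in place of MYC and recruits SIN3 corepressors that contain HDACs. MXD1 (ENSG00000059728, chr2:69897688-69942945) was at 11.01 and 9.88 CPM in DMSO and at 56.5 and 61.1, 70.8 and 72.1 and 124 and 125 CPM after 2, 5 and 20 h of panobinostat. With romidepsin it was at 9.07 and 8.32 CPM at 2 h and 10.3 and 9.51 CPM at 5 h, within or below the DMSO range, and at 99.6 and 101 CPM at 20 h. The rise from 5 to 20 h of romidepsin was 3.33 ± 0.091 on the log2 scale (adjusted p = 1.6e-45), and with ricolinostat MXD1 fell over the same hours by a log2 value given as -1.01 ± 0.11 (adjusted p = 1.4e-12). MXD1 and the neighbouring SNRNP27 share exon bases, and reads of such bases may count for either.

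MAX itself moved less, from 88.5 and 86.9 CPM in DMSO to 196 and 189.7 CPM after 2 h of panobinostat and 118 and 115 CPM after 20 h of romidepsin. MLXIP, which encodes the glucose-sensing factor MondoA of the extended network, stood at 173 and 178 CPM in DMSO, 336 and 364 CPM after 2 h of panobinostat and 164 and 168 CPM after 20 h. Its log2 fold change at 20 h of panobinostat was -0.079 ± 0.047 (adjusted p = 0.13) and turned to 0.23 with scaling by library size only. Of 10 genes of the network measured, 7 were higher and 2 lower with panobinostat than with romidepsin at 5 h, and at 20 h 3 were higher and 4 lower. Over all genes tested, 25.9% were higher and 24.8% lower at 5 h, and 18.3% and 23.4% at 20 h. With ricolinostat 3 of the 10 were higher and 3 lower than DMSO at 5 h, beside 18.8% and 15.3% of all genes.

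CCNG2, TP53INP1, YPEL5 and HBP1 were among the 62 genes of the set still higher than DMSO after 20 h of ricolinostat. These also include genes of unlike function such as EXTL2, GPC2 and PPARA. The GPC2 log2 fold change of 0.90 ran from 0.49 to 1.40 over 20 fits that each left out a library, and 2 of them lost the call. CCNG2 encodes an atypical cyclin that rises when cells leave the cycle, TP53INP1 a p53-induced regulator of cell death and autophagy, and HBP1 a transcriptional repressor of cell-cycle genes. CCNG2 (ENSG00000138764, chr4:77157151-77433388) stood at 4.32 and 4.99 CPM in DMSO and at 12.2 and 12.6, 11.7 and 11.6 and 12.8 and 12.2 CPM over the 3 times of ricolinostat. With romidepsin it stood at 3.94 and 4.50 CPM at 2 h, 7.85 and 7.98 CPM at 5 h and 72.2 and 71.95 CPM at 20 h, above the 40.97 and 41.1 CPM with panobinostat at 20 h. The log2 difference of panobinostat from romidepsin thus went from 1.39 ± 0.11 (adjusted p = 2.8e-20) at 5 h to -0.81 ± 0.084 (adjusted p = 6.7e-15) at 20 h.

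TP53INP1 had the same order, with 4.91 and 7.16 CPM in DMSO, 34.95 and 34.9 CPM with panobinostat and 57.9 and 59.4 CPM with romidepsin at 20 h. YPEL5, a subunit associated with the CTLH ubiquitin ligase, held at 38.5 and 39.2, 39.2 and 39.96 and 41.00 and 44.9 CPM with ricolinostat against 17.4 and 16.8 CPM in DMSO. In romidepsin libraries YPEL5 was below DMSO at 5 h, at 12.5 and 11.8 CPM (log2 fold change -0.49 ± 0.11, adjusted p = 0.00013), and above it at 20 h, at 57.5 and 60.9 CPM. HBP1 rose from 18.3 and 17.2 CPM in DMSO to 29.4 and 26.5 CPM after 20 h of ricolinostat and 40.6 and 43.1 CPM after 20 h of romidepsin. The log2 fold changes against DMSO at 20 h of ricolinostat were 1.42 ± 0.13 for CCNG2, 1.33 ± 0.13 for TP53INP1, 1.33 ± 0.091 for YPEL5 and 0.66 ± 0.094 for HBP1, beside a median of 0.12 over the 188 genes.

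SESN2, which encodes a stress-induced inhibitor of mTORC1, and CCND3, cyclin D3, which drives the cycle, did not last with ricolinostat. SESN2 was at 38.4 and 42.1 CPM in DMSO, 94.1 and 95.5 CPM at 2 h and 35.3 and 33.8 CPM at 20 h of ricolinostat. CCND3 was at 55.1 and 58.03 CPM in DMSO, 106 and 118 CPM at 5 h and 51.2 and 49.9 CPM at 20 h of ricolinostat, a log2 change from 5 to 20 h of -1.15 ± 0.058 (adjusted p = 6.9e-33). So a cyclin that promotes the cycle and genes that restrain it sit in the same set. Of the 23 p53 target genes measured, which include CCNG2, TP53INP1 and SESN2, 14 were higher and 7 lower with panobinostat than with romidepsin at 5 h, and 5 were higher and 15 lower at 20 h. Over all genes tested, 25.9% were higher and 24.8% lower at 5 h, and 18.3% and 23.4% at 20 h. Against DMSO with ricolinostat, 8 of the 23 were higher and 8 lower at 5 h and 8 higher and 5 lower at 20 h. The shares over all genes were 18.8% and 15.3% at 5 h and 14.7% and 16.4% at 20 h.

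**Figure D5:**
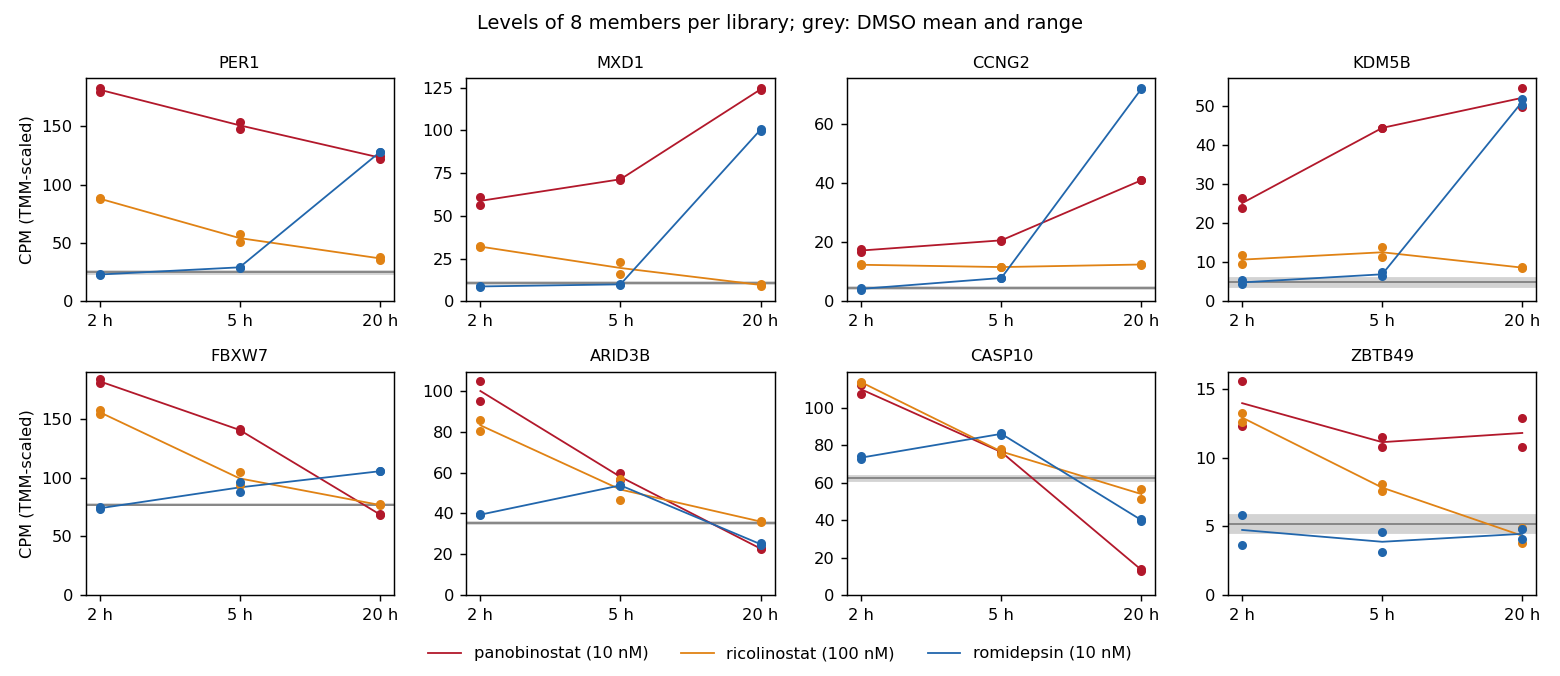
Points are TMM-scaled CPM in each of 2 libraries per group and lines join the group means at 2, 5 and 20 h (horizontal axis, not to scale) for 8 genes of the set, with the DMSO mean and range in grey. PER1, MXD1, CCNG2 and KDM5B climb with romidepsin between 5 and 20 h; ARID3B and CASP10 end below DMSO with panobinostat and romidepsin, and ZBTB49 stays near DMSO with romidepsin.

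Autophagy genes of the set included ULK1, the kinase that starts autophagosome formation, WIPI1, which binds phosphoinositides on the forming membrane, and ATG101, a subunit of the ULK1 complex. ULK1 was at 46.96 and 51.3 CPM in DMSO and at 113 and 114, 150.4 and 142 and 178 and 174 CPM over the 3 times of panobinostat. Romidepsin left it at 51.5 and 52.9 CPM at 2 h and 49.4 and 49.99 CPM at 5 h, near DMSO, and it stood at 132 and 131 CPM at 20 h. Its rise from 5 to 20 h of romidepsin was 1.40 ± 0.057 (adjusted p = 7e-42), while with ricolinostat its log2 change was -0.88 ± 0.058 (adjusted p = 2e-25).

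WIPI1 was at 16.4 and 16.96 CPM in DMSO, 37.2 and 42.2 CPM with panobinostat and 20.6 and 17.3 CPM with romidepsin at 5 h. RUBCN, which encodes the autophagy inhibitor Rubicon, rose too, from 28.6 and 31.01 CPM in DMSO to 54.4 and 60.6 CPM with panobinostat at 5 h and 58.6 and 59.8 CPM with romidepsin at 20 h. Of 28 lysosome and autophagy genes measured, 21 were higher and 1 lower with panobinostat than with romidepsin at 5 h, and at 20 h 12 were higher and 10 lower. Over all genes tested, 25.9% were higher and 24.8% lower at 5 h, and 18.3% and 23.4% at 20 h. Against DMSO at 5 h, 20 of the 28 were higher and 0 lower with ricolinostat, beside 18.8% and 15.3% of all genes. With romidepsin at 5 h, 3 were higher and 12 lower, beside 13.0% and 16.5% of all genes.

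Some genes of the set encode chromatin regulators. Of those named here, KDM5B, ARID4A, ARID4B and ING1 were chosen after their values were seen. KDM5B and KDM7A encode histone demethylases for H3K4 and for H3K9 and H3K27, while ARID4A, ARID4B and ING1 encode subunits of SIN3 complexes, which carry HDAC1 and HDAC2. KDM5B (chr1:202724495-202809470) was at 3.60 and 6.08 CPM in DMSO and at 23.8 and 26.5, 44.4 and 44.5 and 49.7 and 54.5 CPM over the 3 times of panobinostat. With romidepsin it stood at 6.43 and 7.42 CPM at 5 h and 50.4 and 51.9 CPM at 20 h, where the libraries of both drugs overlapped. The difference between panobinostat and romidepsin was 2.69 ± 0.12 at 5 h (adjusted p = 5.5e-30) and 0.029 ± 0.094 at 20 h (adjusted p = 0.85).

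KDM7A reached similar values with both hydroxamates at 5 h, 24.4 and 26.5 CPM with panobinostat and 26.6 and 27.00 CPM with ricolinostat, against 7.67 and 8.50 CPM in DMSO and 5.17 and 6.40 CPM with romidepsin. At 20 h it was at 8.56 and 11.5 CPM with ricolinostat and 39.7 and 37.5 CPM with romidepsin, and the romidepsin libraries were now the higher. ARID4A was at 24.1 and 20.8 CPM in DMSO, 60.1 and 59.1 CPM with panobinostat at 2 h and 47.9 and 44.4 CPM with romidepsin at 20 h. ARID4B, its paralog, ended at 73.1 and 79.6 CPM with panobinostat and 116 and 119.7 CPM with romidepsin at 20 h, a log2 difference of -0.63 ± 0.053 (adjusted p = 1.9e-19). ARID4B shares exon bases with GGPS1 and RBM34. ING1 went from 15.7 and 14.2 CPM in DMSO to 45.8 and 48.98 CPM with panobinostat and 39.6 and 37.7 CPM with romidepsin at 20 h. HDAC and corepressor genes as a fixed list of 22 held 0 members of the set. Of these 22, 8 were higher and 11 lower with panobinostat than with romidepsin at 5 h, beside 25.9% and 24.8% of all genes.

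Immediate-early genes of the set were NR4A2 and NR4A3, orphan nuclear receptors, and ZFP36, which encodes tristetraprolin, a protein that marks AU-rich messages for decay. NR4A2 was at 1.78 and 2.57 CPM in DMSO, 20.7 and 21.2 CPM with panobinostat and 4.72 and 4.21 CPM with ricolinostat at 2 h. At 20 h it stood at 49.2 and 48.3 CPM with panobinostat and 119 and 106 CPM with romidepsin, the romidepsin libraries being the higher by a log2 difference written as -1.21 ± 0.082 for panobinostat against romidepsin (adjusted p = 7.4e-25). NR4A3 showed the same order at lower levels, 0.550 and 0.634 CPM in DMSO, 13.3 and 12.9 CPM with panobinostat and 32.5 and 31.3 CPM with romidepsin at 20 h.

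ZFP36 was more abundant, at 44.9 and 44.05 CPM in DMSO, 268 and 237 CPM with panobinostat at 2 h, 481 and 479.8 CPM with panobinostat at 20 h and 612 and 621 CPM with romidepsin at 20 h. Its rise from 5 to 20 h was 0.57 ± 0.046 with panobinostat (adjusted p = 2.1e-19) and 2.89 ± 0.051 with romidepsin (adjusted p = 5e-64). Of 15 immediate-early genes measured, 12 were higher and 2 lower with panobinostat than with romidepsin at 5 h, and 4 were higher and 9 lower at 20 h. Over all genes tested, 25.9% were higher and 24.8% lower at 5 h, and 18.3% and 23.4% at 20 h. With ricolinostat 7 of the 15 were higher and 3 lower than DMSO at 5 h, beside 18.8% and 15.3% of all genes.

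SLC2A4, DACT3 and SMIM10L2B had the largest log2 differences between panobinostat and romidepsin at 5 h. SLC2A4 encodes the insulin-regulated glucose transporter GLUT4, DACT3 an inhibitor of Wnt signalling, and SMIM10L2B a small membrane protein. SLC2A4 (ENSG00000181856, chr17:7281667-7288257) was at 0.339 and 0.149 CPM in DMSO, 22.4 and 21.7 CPM with panobinostat, 2.31 and 2.34 CPM with ricolinostat and 0.118 and 0.788 CPM with romidepsin at 5 h, and at 9.45 and 10.7 CPM with romidepsin at 20 h. Romidepsin libraries were thus near DMSO at 5 h and far above it at 20 h. From 5 to 20 h SLC2A4 rose by a log2 value of 4.54 ± 0.28 with romidepsin (adjusted p = 5.9e-28), and its change with ricolinostat was -2.19 ± 0.34 (adjusted p = 6e-08). SLC2A4 shares exon bases with YBX2 on the other strand.

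DACT3 was at 3.52 and 3.95 CPM in DMSO, 74.00 and 74.6 CPM with panobinostat and 3.27 and 3.15 CPM with romidepsin at 5 h, and 119.9 and 121 CPM with panobinostat and 83.6 and 86.2 CPM with romidepsin at 20 h. The log2 difference between the inhibitors at 5 h was 4.53 ± 0.22 (adjusted p = 2.6e-09). SMIM10L2B was at 0.339 and 0.149 CPM in DMSO, 18.4 and 18.7 CPM with panobinostat and 15.5 and 14.8 CPM with romidepsin at 20 h; it has a near-identical copy, and how reads of both were counted is unknown here.

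Genes of general transcription were also in the set, of which HINFP, NPAT and CDK7 were chosen after their values were seen. HINFP and NPAT encode factors that activate replication-dependent histone genes, CDK7 the kinase of TFIIH, and SNAPC4 the large subunit of the complex that starts transcription of small nuclear RNA genes. HINFP was at 25.2 and 25.9 CPM in DMSO, 72.7 and 73.6 CPM with panobinostat and 23.5 and 22.4 CPM with romidepsin at 5 h, and 46.3 and 47.5 CPM with romidepsin at 20 h. NPAT went from 45.8 and 45.7 CPM in DMSO to 89.7 and 89.4 CPM with panobinostat at 5 h. With romidepsin at 20 h it was at 61.4 and 63.8 CPM. Its log2 change from 5 to 20 h of romidepsin was 0.15, and that call was lost in each of the 20 fits that left out a library. CDK7 was at 20.7 and 18.3 CPM in DMSO, 38.4 and 36.4 CPM with panobinostat and 24.9 and 24.6 CPM with romidepsin at 20 h, a log2 difference of 0.60 ± 0.082 (adjusted p = 8.2e-10).

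SNAPC4 had the largest log2 difference of panobinostat over romidepsin at 20 h among the 188 genes, 1.53 ± 0.058 (adjusted p = 8.5e-44). It was at 71.9 and 63.99 CPM in DMSO, 154 and 149 CPM with panobinostat and 53.7 and 51.00 CPM with romidepsin at 20 h, the romidepsin libraries lying below DMSO. ZBTB49, a zinc finger factor, was at 4.49 and 5.85 CPM in DMSO, 10.8 and 12.9 CPM with panobinostat and 4.81 and 4.12 CPM with romidepsin, a log2 difference of 1.41 ± 0.17 (adjusted p = 1.8e-11). KCTD5, an adaptor of cullin 3 ubiquitin ligases, was at 79.7 and 81.5 CPM in DMSO, 164 and 166 CPM with panobinostat and 80.4 and 80.2 CPM with romidepsin, the romidepsin libraries lying inside the DMSO range. Its log2 difference between them was 1.04 ± 0.050 (adjusted p = 1.9e-35).

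A few genes ended below DMSO. With panobinostat at 20 h these were CASP10, DDR2, ARID3B, RO60 and FBXW7, and the count was 8 without panobinostat 20 h replicate 2. CASP10 (ENSG00000003400, chr2:201182881-201229406), an initiator caspase of death receptor signalling, went from 61.1 and 63.7 CPM in DMSO through 108 and 112 CPM at 2 h to 12.9 and 14.04 CPM at 20 h of panobinostat, a log2 fold change of -2.21 ± 0.071 against DMSO (adjusted p = 5.5e-51). With romidepsin it ended at 39.3 and 40.8 CPM, and its log2 difference between the inhibitors at 20 h was -1.57 ± 0.074 (adjusted p = 2e-36). DDR2, a collagen receptor kinase, was at 9.36 and 12.1 CPM in DMSO, 29.6 and 25.9 CPM at 5 h and 5.32 and 6.04 CPM at 20 h of panobinostat. ARID3B, a DNA-binding factor, went from 34.9 and 35.7 CPM in DMSO through 94.9 and 105 CPM at 2 h to 23.1 and 22.5 CPM at 20 h of panobinostat and ended at 24.5 and 25.4 CPM with romidepsin.

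FBXW7, the substrate receptor of the ubiquitin ligase that degrades MYC and cyclin E, was at 77.5 and 76.6 CPM in DMSO and at 184 and 180.4, 139.6 and 142 and 68.3 and 69.5 CPM over the 3 times of panobinostat. Romidepsin libraries were at 105 and 106 CPM at 20 h, above those of panobinostat by a log2 difference written as -0.62 ± 0.053 (adjusted p = 8.4e-19). Its log2 fold change against DMSO at 20 h of panobinostat, -0.16 ± 0.054, and that of RO60, -0.24 ± 0.047, changed sign with scaling by library size only, to 0.14 and 0.062. With romidepsin at 20 h the 5 lower genes were TRMT44, DDR2, CASP10, ARID3B and SNAPC4.

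The promoters of the set were read from RefSeq (GRCh38.p14), 250 bases before to 50 after each start, and 157 of the 188 genes had one. Of these, 11.5% held the E-box CACGTG, the site that MYC, MAX and clock factors are known to bind, beside 9.76% of the 11014 promoters of protein-coding genes tested, 8.88% of all 15842 promoters and 4.63% of the comparison set. The cyclic AMP response element TGACGTCA was in 5.73% (9 promoters), beside 3.21% of tested genes, 2.59% of all promoters and 0.926% of the 108 promoters of the comparison set. Both strands were searched; these motifs do not overlap each other, and each match is a description and not a binding site. The stretches below are a selection, from the 250 bases before the start and on the strand of the gene. PER1, CCNG2, HINFP and CDK7 hold an E-box, TMEM86A, MLXIP, NR6A1 and TRMT44 a cyclic AMP response element, and MAFF both. TMF1 also holds both and, like other members with either motif, is not shown. These motifs are in capitals.
PER1 (chr17:8152542-8152607, - strand): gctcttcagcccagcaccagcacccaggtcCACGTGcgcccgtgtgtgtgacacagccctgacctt
CCNG2 (chr4:77157147-77157206, + strand): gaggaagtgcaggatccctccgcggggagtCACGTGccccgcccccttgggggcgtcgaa
HINFP (chr11:119121371-119121436, + strand): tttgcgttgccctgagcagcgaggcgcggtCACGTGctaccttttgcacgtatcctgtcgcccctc
CDK7 (chr5:69234751-69234816, + strand): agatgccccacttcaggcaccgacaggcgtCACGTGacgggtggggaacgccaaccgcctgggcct
TMEM86A (chr11:18698698-18698765, + strand): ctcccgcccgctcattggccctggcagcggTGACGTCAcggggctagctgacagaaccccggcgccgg
MLXIP (chr12:122078669-122078736, + strand): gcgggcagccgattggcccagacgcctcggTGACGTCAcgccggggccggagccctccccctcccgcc
NR6A1 (chr9:124771312-124771365, - strand): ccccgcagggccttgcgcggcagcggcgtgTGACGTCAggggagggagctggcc
TRMT44 (chr4:8440717-8440776, + strand): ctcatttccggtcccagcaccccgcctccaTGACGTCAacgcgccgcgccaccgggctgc
MAFF (chr22:38201768-38201977, + strand): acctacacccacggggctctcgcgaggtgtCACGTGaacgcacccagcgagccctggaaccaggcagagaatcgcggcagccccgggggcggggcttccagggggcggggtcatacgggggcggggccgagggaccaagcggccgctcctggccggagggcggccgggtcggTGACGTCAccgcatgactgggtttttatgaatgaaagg

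These promoters sit on genes with unlike courses. TMEM86A, a lysoplasmalogenase, was at 1.06 and 1.49 CPM in DMSO, 10.7 and 10.5 CPM with panobinostat and 1.38 and 1.44 CPM with romidepsin at 5 h, and 13.3 and 13.8 CPM with romidepsin at 20 h. TRMT44, a tRNA methyltransferase, carries the same element and was at 23.8 and 22.5 CPM in DMSO and 16.3 and 12.2 CPM with romidepsin at 20 h, a log2 fold change of -0.70 ± 0.10 (adjusted p = 2.7e-09). NR6A1, an orphan nuclear receptor, was at 8.68 and 8.09 CPM in DMSO, 29.1 and 30.9 CPM with panobinostat and 5.88 and 5.75 CPM with romidepsin at 5 h. MAFF, a small MAF factor, was at 1.65 and 2.27 CPM in DMSO, 6.84 and 5.37 CPM with panobinostat and 1.14 and 0.832 CPM with romidepsin at 2 h, and 4.68 and 4.38 CPM with romidepsin at 20 h.

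Other motifs were more or less frequent in the set than in tested genes, with no test made. The heat shock element TTCNNGAA was in 2.55% of the promoters of the set (4 promoters), beside 5.96% of those of tested genes and 2.78% of the comparison set. The GC box GGGCGG was in 76.4% of the promoters of the set and 68.0% of those of tested genes, and the mean GC content was 66.8% and 63.9%. The CCAAT box was in 35.7% and 37.0%, the TATA box TATAAA in 7.01% and 6.30%, and the AP-1 site TGACTCA in 3.18% and 3.05%. The core TGACG of the cyclic AMP element was in 41.4% and 33.4%, the CArG box in 2.55% and 1.08%, and the sterol element TCACNCCAC in 0% and 1.14%. The set lay on 23 chromosomes, with 23 genes on chromosome 1 (12.2%, beside 10.2% of tested genes) and 19 on chromosome 19 (10.1%, beside 7.76%). Its median gene span was 28.8 kb beside 33.2 kb for tested genes. Exon bases were shared with another annotated gene by 78 members, for 68 of them on the opposite strand. The strand setting of the counting is unknown here. Beside MXD1, ARID4B and SLC2A4, these members include PER1, NPAT, HBP1, WIPI1, RUBCN, ING1, TMEM86A, RO60, FBXW7 and others named above. The share of all tested genes with such an overlap was not computed.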

How the data were processed

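RNA from OPM2 cells in 20 libraries was measured by strand-specific, paired-end sequencing with reads of 100 bases, per the labels' protocols. The values are raw counts of reads per Ensembl gene, deposited by the authors. Per the submitters' processing notes, the tools were HISAT2, SAMtools and featureCounts, and the genome build was GRCh38. Which annotation, strand setting and rule for shared reads were used is not given in the sources used here. Gene types and positions came from GENCODE 29. Libraries were grouped by their labels.

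CPM for choosing the genes were made from library totals. All 188 genes passed filterByExpr, which left 20957 genes. In edgeR 4.0.16 (R 4.3.3), TMM scaling was followed by 1 robust quasi-likelihood fit over the 10 groups, with Benjamini-Hochberg correction within each contrast and a threshold of 0.05, and the code was tested on simulated data. Fold changes are log2 values with standard errors, and n is 2 libraries per group. The verbs rose, fell, higher and lower refer to calls of this test, except at 2 h, where no test was made.

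Alternatives were DESeq2 1.42.0, its size factors, library size only, no filter, a replicate block, each library left out, and other limits for choosing the genes. The members and lists were chosen with earlier results of these data known. By rule, genes named in the text were those with the largest d, the highest counts, the extremes of each contrast, genes on fixed lists and genes at a limit, 83 in all. A further 17 (ARID4A, ARID4B, ING1, KDM5B, FBXW7, CCND3, HBP1, PPARA, PPARD, NPAT, HINFP, ATG101, RUBCN, CDK7, SYVN1, YES1 and TMF1) were chosen after their values were seen.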

Additional observations from a re-analysis of the deposited data

Results flagged for a closer look

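The difference between panobinostat and romidepsin changed from 5 to 20 h in a test of that change itself (edgeR quasi-likelihood test of the interaction, both inhibitors at 10 nM). As a signed value, panobinostat less romidepsin, it was lower at 20 h in 164 of the 188 genes and higher in 3. A lower value can be a smaller gap, a reversed one or a wider one with romidepsin the higher. The log2 change of the difference was -5.14 for SLC2A4, -4.31 for SMIM10L2B, -4.02 for DACT3, -3.09 for NR4A3 and -3.08 for TMEM86A, the 5 most negative. It was 0.34 for CPTP, 0.28 for C2orf49 and 0.19 for KCTD5, the 3 genes in which the signed difference rose. CPTP lost its call in 1 of 20 fits that each left out a library, without romidepsin 5 h replicate 1 at 0.18, while C2orf49 lost it in 6 and KCTD5 in 12.

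In 151 of the 188 genes both ricolinostat libraries were lower, and both romidepsin libraries higher, at 20 h than at 5 h. This count compares CPM ranges and not calls, and its share over all genes was not computed. By edgeR calls 170 fell with ricolinostat (20.7% of all genes) and 157 rose with romidepsin (33.4% of all genes). That difference between the inhibitors was not tested, because their doses differ.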

How the results depend on the processing

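Counts of genes higher or lower, each as a percent of the members, and the number of members were recomputed under alternatives. Of these 759 values, 720 stayed within 1.5 times. Where the CPM added in the rule was changed, or the rule left out a library, only the number of members was recomputed. With scaling by library size only, the percent lower was 1.60 with panobinostat and 5.32 with ricolinostat at 20 h and 3.72 with romidepsin at 5 h, and 39.9 rose from 5 to 20 h of panobinostat. This scaling raised the median log2 fold change of all genes at 20 h of panobinostat to 0.56 from 0.25. Limits of 1.0 for both hydroxamates gave 85 members, limits of 0.6 gave 426, and a romidepsin d below 0 gave 60. In that order, the percent lower was 1.18, 7.04 and 1.67 with panobinostat at 20 h, 1.18, 5.63 and 1.67 with romidepsin at 20 h, 0, 0.939 and 0 in panobinostat against romidepsin at 5 h, and 1.18, 10.1 and 0 from 5 to 20 h of romidepsin. Limits of 1.0 gave 8.24% lower with ricolinostat at 20 h, and limits of 0.6 gave 0.704% higher from 5 to 20 h of ricolinostat. The romidepsin limit of 0 gave 6.67% lower with ricolinostat at 20 h, 23.3% higher and 15% lower with romidepsin at 5 h, and 25% lower from 5 to 20 h of panobinostat. The percent whose signed difference, panobinostat less romidepsin, rose from 5 to 20 h was 0.532 with no filter on low counts. It was 0 with limits of 1.0 or a romidepsin limit of 0. Leaving out each library in turn gave 3.19 to 4.26% lower with panobinostat at 20 h and 7.98 to 16.5% lower with ricolinostat at 20 h. It gave 6.91 to 12.2% lower with romidepsin at 5 h and 0 to 0.532% lower in panobinostat against romidepsin at 5 h. The percent whose signed difference rose was 0 to 1.60. The 27600 values of named members leave out DESeq2, no filter and fits of only the groups compared. Of these values, 26805 kept their side of the threshold, with no change of sign where either fit made a call. The call was lost in 567 and gained in 220. With library size only, 8 changed sign where either fit made a call. From 5 to 20 h of panobinostat these were SLC25A44 (0.14) and ATG101 (0.014). With panobinostat at 20 h they were MLXIP (0.23), RO60 (0.062), FBXW7 (0.14) and ARID4B (0.29). With romidepsin at 20 h they were TENT4B (0.22) and KCTD5 (0.23). The cause of these changes was not tested.

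Replicate numbers were shared across groups. Deviations of same-numbered libraries correlated between -0.025 and 0.035 over 45 pairs of groups, so no strong effect shared by number was seen. Whether same-numbered libraries were handled together cannot be told from these correlations. With the replicate block, 172 of the 188 genes were higher with panobinostat at 20 h and 170 with romidepsin at 20 h, and no count moved by more than 1.5 times. Low counts limit genes such as SLC2A4 and SMIM10L2B, which were below 0.4 CPM in DMSO.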
